A study of Homo sapiens with 12 samples.

Results

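HEK293 cells that were already under the Mediator kinase inhibitor Senexin B still raised a set of NF-κB target genes when tumour necrosis factor alpha (TNFα) was added. The account below covers that response: the 3 libraries of cells given Senexin B and then TNFα (TNF_SnxB) against the 3 libraries of cells given Senexin B alone (SnxB), 6 of the 12 libraries of the series. Of 56634 gene symbols in the count table, 14822 passed the filter on low counts and were tested, and 174 of them met the agreement rule explained below, 145 higher and 29 lower with TNFα.

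All libraries came from HEK293, an established human embryonic kidney cell line, with 3 biological replicates in each of 4 groups. In SnxB the cells had 1 µM Senexin B for 3 h, and in TNF_SnxB they had 1 µM Senexin B for 1 h and then 10 ng/mL TNFα for 2 h with the inhibitor still present. The remaining groups, set beside these where stated, had 0.1% DMSO, the solvent, for 3 h (DMSO) or the same solvent for 1 h followed by 2 h of TNFα at 10 ng/mL (TNF). Because both groups compared carried the inhibitor, and no readout of CDK8 or CDK19 activity was analysed here, a rise is described as a rise under Senexin B and not as one that needs no Mediator kinase.

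TNFα binds its receptor on the cell surface, where adaptor proteins, ubiquitin ligases and kinases assemble and activate the IκB kinase complex. That complex marks the inhibitor protein IκBα for destruction, and NF-κB dimers then enter the nucleus and bind kB sites near their target genes, many of which encode chemokines, survival proteins and the inhibitors that end the response. CDK8 and its paralog CDK19 are the kinases of the Mediator complex, held there with cyclin C, MED12 and MED13, and Senexin B is a selective inhibitor of both.

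Read totals were 8705277 to 10465100 in SnxB and 9121184 to 13818638 in TNF_SnxB. Values below are counts per 1000000 (CPM) after TMM scaling of the library sizes, in which 3 counts correspond to 0.217 to 0.345 CPM in these 6 libraries. The 3 TNF_SnxB libraries were not alike. Counts of libraries 2 and 3 differed from those of library 1 by 5.62 and 5.38 times what sampling alone gives (chi-square per degree of freedom), against 1.21 between libraries 2 and 3 and 1.10 to 1.13 among the SnxB libraries. In libraries 2 and 3 the deviation of a gene's log2 CPM from its mean over all 12 libraries followed the GC content of its transcript (Spearman correlation over genes -0.701 and -0.692), whereas the correlation was 0.135 in library 1. HEK293 markers summed to 759 to 800 CPM in SnxB and 769 to 793 CPM in TNF_SnxB, and none of the 6 tested was called. Leukocyte and endothelial markers stayed at or under 1.37 CPM in sum, with CD3E, MS4A1, CD68, HBB, PECAM1, CDH5, TEK and EMCN at 0 in all 6 libraries. Fibroblast markers summed to 17.7 to 19.4 CPM and 15.1 to 17.1 CPM, mostly from COL1A1, with COL1A2 and DCN at 0.

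A gene was therefore counted as agreeing only when the test called it with the same sign in 3 fits: with all 3 TNF_SnxB libraries, with library 1 alone, and with libraries 2 and 3 alone. The 3 fits share the SnxB libraries, and the first holds the TNF_SnxB libraries of the others. Agreement is therefore a filter on the TNF_SnxB libraries and not a repeat of the experiment. With library 1 alone, the spread came from the SnxB, DMSO and TNF groups, so that fit measures no spread among TNF_SnxB libraries. A call is an adjusted p under 0.05 in edgeR's quasi-likelihood test, adjusted by Benjamini and Hochberg's method over all 14822 genes. With all 3 libraries, 1094 genes (7.38%) were called higher and 1012 (6.83%) lower. With library 1 alone the numbers were 173 (1.17%) and 44 (0.297%), and with libraries 2 and 3 they were 2804 (18.9%) and 2598 (17.5%). The agreeing genes were 145 higher (0.978%) and 29 lower (0.196%).

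GC content moved with the genes that were called and did not agree. The 949 of them called higher had a median transcript GC of 41.2% and the 983 called lower 61.6%, with 49.9% over all tested genes that had a value. Agreeing genes had medians of 49.9% (higher) and 52.8% (lower). From the lowest to the highest decile of GC content, the median log2 fold change ran from 0.21 to -0.28 with libraries 2 and 3 and from -0.01 to -0.04 with library 1. Agreeing rises numbered 11 to 19 in every decile. GC content was known for 13464 tested genes and for 169 of the 174.

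**Figure D1:**
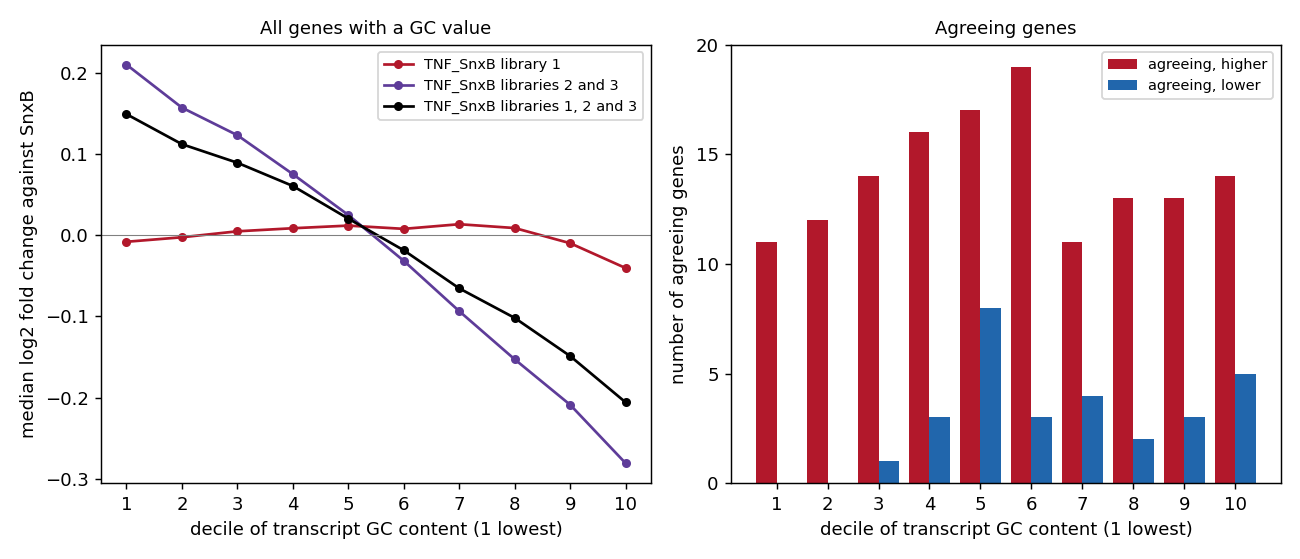
Left, median log2 fold change against SnxB in each decile of transcript GC content, for TNF_SnxB library 1, libraries 2 and 3, and all 3. Right, the number of agreeing genes per decile; the left lines for libraries 2 and 3 fall steadily, library 1 stays near 0, and agreeing rises occur in every decile.

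The rises were few and some were large. Of the 145, 14 were over 4-fold, 23 from 2-fold to 4-fold, 22 from 1.5-fold to 2-fold and 86 under 1.5-fold, with a median of 1.4-fold. The falls were small: 5 of 29 were past 1.5-fold and none reached 2-fold, with a median fall of 1.33-fold. In all 145 rises the 3 TNF_SnxB libraries lay above the 3 SnxB libraries, and in 28 of the 29 falls below them, which the agreement rule nearly fixes. The share of all tested genes whose groups did not overlap in either direction was 22.7%, and nothing is read from the comparison. The genes nearest the threshold on the inside were TFE3 (largest adjusted p of its 3 fits 0.0493) and KLHL5 (0.0482) among rises and FZD1 (0.0494) and CCDC78 (0.0482) among falls; just outside lay CTC1 (0.0532), SLC39A1 (0.0535), TSHZ1 (0.0561) and CARHSP1 (0.0579). In RNA from whole cultures, a change in every cell and a change in the share of cells that respond cannot be told apart.

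Sequence just upstream of these genes was examined for the kB consensus, the 10-letter motif bound by NF-κB, on both strands of the 250 bases before each annotated start. It was found in 17 of the 30 agreeing rises over 2-fold that had a promoter in the RefSeq table (56.7%), in 14 of 88 smaller rises (15.9%), in 1 of 24 falls (4.17%) and in 1380 of all 27305 promoters in the table (5.05%). Only 10982 of the 14822 tested genes had a promoter there, of which 667 (6.07%) had a match, so the share for tested genes is incomplete. Overlapping matches in 1 promoter were counted once. A match is a description of letters, and binding was not measured. The windows below show the 6 largest rises with a match, with NFKBIA, encoding IκBα, added after its values were seen. They are 70 bases of RefSeq's GRCh38.p14 sequence, 5′ to 3′ on the strand of the gene, and capitals mark the matched bases.
CXCL10, chr4:76023580-76023649, minus strand: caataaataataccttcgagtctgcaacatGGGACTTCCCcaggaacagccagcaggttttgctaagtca
CCL20, chr2:227813733-227813802, plus strand: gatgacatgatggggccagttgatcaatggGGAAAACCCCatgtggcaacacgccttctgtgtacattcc
CXCL1, chr4:73869285-73869354, plus strand: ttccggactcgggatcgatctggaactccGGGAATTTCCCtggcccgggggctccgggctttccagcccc
TNFAIP3, chr6:137867174-137867243, plus strand: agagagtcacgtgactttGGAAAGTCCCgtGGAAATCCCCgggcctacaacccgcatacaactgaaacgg
TNFRSF9, chr1:7940873-7940942, minus strand: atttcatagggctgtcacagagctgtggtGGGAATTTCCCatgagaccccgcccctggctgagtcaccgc
BIRC3, chr11:102317319-102317388, plus strand: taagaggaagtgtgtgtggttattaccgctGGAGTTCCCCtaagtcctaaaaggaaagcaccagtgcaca
NFKBIA, chr14:35404791-35404860, minus strand: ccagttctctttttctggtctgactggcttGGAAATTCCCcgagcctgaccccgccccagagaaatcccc
The match nearest the start ended 45 bases before it in TNFAIP3, where 2 matches stand 2 bases apart, and 63 to 71 bases before it in TNFRSF9, CXCL1, CCL20 and NFKBIA. In CXCL10 and BIRC3 the window shown ends its match 112 and 125 bases before the start. CXCL1 and TNFRSF9 share the same 11 capital letters, 2 overlapping matches on opposite strands.

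Chemokine and cytokine genes included the largest fitted rise, that of CXCL10, which had no count in SnxB. Of 31 listed symbols, 15 were tested, 11 were called higher and none was called lower. The 9 that agreed were CXCL1, CXCL3, CXCL8, CXCL10, CCL2, CCL20, IL32, CSF1 and BMP2. The list's median log2 fold change was 1.31 against -0.00424 over all tested genes, of which 7.38% were called higher and 0.978% agreed as higher. CXCL1, CXCL8, CXCL10 and CCL20 had 4, 5, 0 and 0 counts over the SnxB libraries. They passed the low-count filter only through libraries with TNFα, which set their direction in advance. CXCL2, CXCL3 and CXCL6 were also low in SnxB, with 6, 18 and 12 counts over its libraries. Nothing is therefore read from the list's counts and median. CXCL10, which attracts activated T cells, had no count in any SnxB library and 0.768, 1.59 and 1.22 CPM in TNF_SnxB libraries 1, 2 and 3. Its 44 counts against a floor of 3 counts over the SnxB group put it at least 11.8-fold higher. CCL20, a ligand for CCR6 on lymphocytes and dendritic cells, was likewise without a count in SnxB and reached 0.878, 0.239 and 0.643 CPM, at least 5.38-fold higher on 20 counts. Neither had a count in DMSO, so both were read only in the libraries with TNFα.

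CXCL1, a neutrophil attractant, had 0.228, 0.0947 and 0.106 CPM in SnxB and 2.42, 3.43 and 2.93 CPM in TNF_SnxB. The fitted rise was 20.1-fold (log2 4.33, SE 0.416), with a basal level that rests on very few reads. The filter set its direction, so no p is read for it. CXCL8, also a neutrophil attractant, went from 0, 0.379 and 0.106 CPM to 1.21, 1.2 and 1.43 CPM (log2 2.83, SE 0.548), with the same limit. CXCL3 had 0.342, 0.853 and 0.635 CPM in SnxB and 4.17, 2.95 and 4 CPM in TNF_SnxB, a 5.82-fold rise. CXCL1, CXCL2 and CXCL3 are close copies of each other, so reads counted for one may belong to another. CXCL2 and CXCL6 were called higher with all 3 libraries (adjusted p = 0.0109 and 0.00114) and not with library 1 alone (adjusted p = 0.109 and 0.183). All 5 stayed at or under 4.17 CPM in TNF_SnxB.

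CCL2, which attracts monocytes, had 1.25, 1.8 and 2.01 CPM in SnxB and 4.94, 2.39 and 5.43 CPM in TNF_SnxB (2.48-fold, adjusted p = 0.00223); library 2 stood just above the SnxB values. BMP2, a ligand of the TGF-β superfamily, rose from 17.8, 14.7 and 17.7 CPM to 37.5, 35.6 and 37.5 CPM, and CSF1, the macrophage growth factor, from 8.43, 8.15 and 8.57 CPM to 17.4, 16 and 17 CPM. Those 2 were the best measured of the list, each close to 2-fold (2.22-fold and 2-fold). IL32, a cytokine induced in inflamed tissue, rose 2.47-fold (adjusted p = 0.00112). Among listed genes that did not pass the filter were TNF itself, with 20 counts in TNF_SnxB, and IL6, with none.

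Some IκB family and NF-κB feedback genes rose with TNFα, 6 of 13 tested. The list of IκB proteins and feedback regulators had 13 tested genes, of which 8 were called higher and 1 lower, and 6 agreed, all higher. Over all tested genes, 7.38% were called higher, 6.83% were called lower and 0.978% agreed as higher. TNFAIP3 (A20), a ubiquitin-editing enzyme that ends NF-κB signalling, had 2.96, 4.45 and 3.81 CPM in SnxB and 37.5, 34.3 and 37.3 CPM in TNF_SnxB. Its rise was 9.58-fold (log2 3.26, SE 0.112, adjusted p = 5.48e-19), and all 3 TNF_SnxB libraries were nearly level. NFKBIA, the gene of IκBα, rose from 32.6, 29.9 and 29.8 CPM to 188, 168 and 165 CPM, which is 5.63-fold (log2 2.49, SE 0.061, adjusted p = 1.94e-22). Smaller rises were those of BCL3, an IκB-like coactivator (3.04-fold), NFKBIE, encoding IκBε (1.66-fold), CYLD, a deubiquitinase (1.38-fold), and TNIP1, a partner of A20 (1.24-fold). TNIP2 (called lower), ITCH and RNF11 (called higher) did not agree: their adjusted p with library 1 alone was 0.928, 0.429 and 0.757.

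NFKBIZ, encoding the IκBζ coactivator, was singled out after its values were seen. It had 6.5, 6.16 and 6.88 CPM in SnxB and 7.02, 7.18 and 8.01 CPM in TNF_SnxB, a log2 difference of 0.20 (SE 0.137, adjusted p = 0.346), and was thus not called under the inhibitor. Without the inhibitor it was called, at 1.76-fold (adjusted p = 2.39e-05), and the test of the difference between the 2 responses gave -0.62 on the log2 scale (SE 0.182, adjusted p = 0.0579), which did not pass.

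Genes of the NF-κB subunits rose as a group apart from RELA. All 5 were tested, 4 were called higher and agreed, and the median log2 fold change was 1.13. The shares over all tested genes were 7.38% called higher and 0.978% agreeing as higher. RELB, the subunit of the alternative pathway, had 5.81, 4.83 and 6.03 CPM in SnxB and 48.8, 40 and 37.2 CPM in TNF_SnxB, a 7.49-fold rise (log2 2.91, SE 0.124, adjusted p = 9.17e-17). NFKB2, which encodes RELB's partner, rose 2.84-fold from 27.6, 27.9 and 29.8 CPM to 86.4, 83.6 and 73.5 CPM. NFKB1 rose 2.19-fold and REL 1.93-fold. RELA had 83.9, 81.5 and 73 CPM in SnxB and 82.1, 79.4 and 81.1 CPM in TNF_SnxB (log2 0.03, SE 0.054, adjusted p = 0.796), and its groups overlapped.

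Most genes of the chain from the TNF receptor to the IκB kinases were not called. Of 22 tested, 6 were called higher and 2 lower, and 4 agreed as higher, with a median log2 fold change of 0.0455. The shares over all tested genes were 7.38% called higher, 6.83% called lower and 0.978% agreeing as higher. BIRC3, a ubiquitin ligase of the receptor complex that protects against cell death, had 1.48, 2.37 and 1.8 CPM in SnxB and 9.11, 13.4 and 11.2 CPM in TNF_SnxB, a 5.93-fold rise (log2 2.57, SE 0.191, adjusted p = 7.88e-11). MAP3K8, a kinase held by the NF-κB1 precursor, rose 3.09-fold, TRAF3, a brake on the alternative pathway, 1.4-fold, and BIRC2, the paralog of BIRC3, 1.39-fold. TNFRSF1A, the main TNF receptor of these cells, had 28.6, 29.8 and 26.8 CPM in SnxB and 30.7, 25.1 and 24.7 CPM in TNF_SnxB (adjusted p = 0.423). TRAF1 and SHARPIN were called lower and TAB2 and CHUK higher with all 3 libraries, and with library 1 alone their adjusted p was 0.786, 0.654, 0.596 and 0.741.

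**Figure D2:**
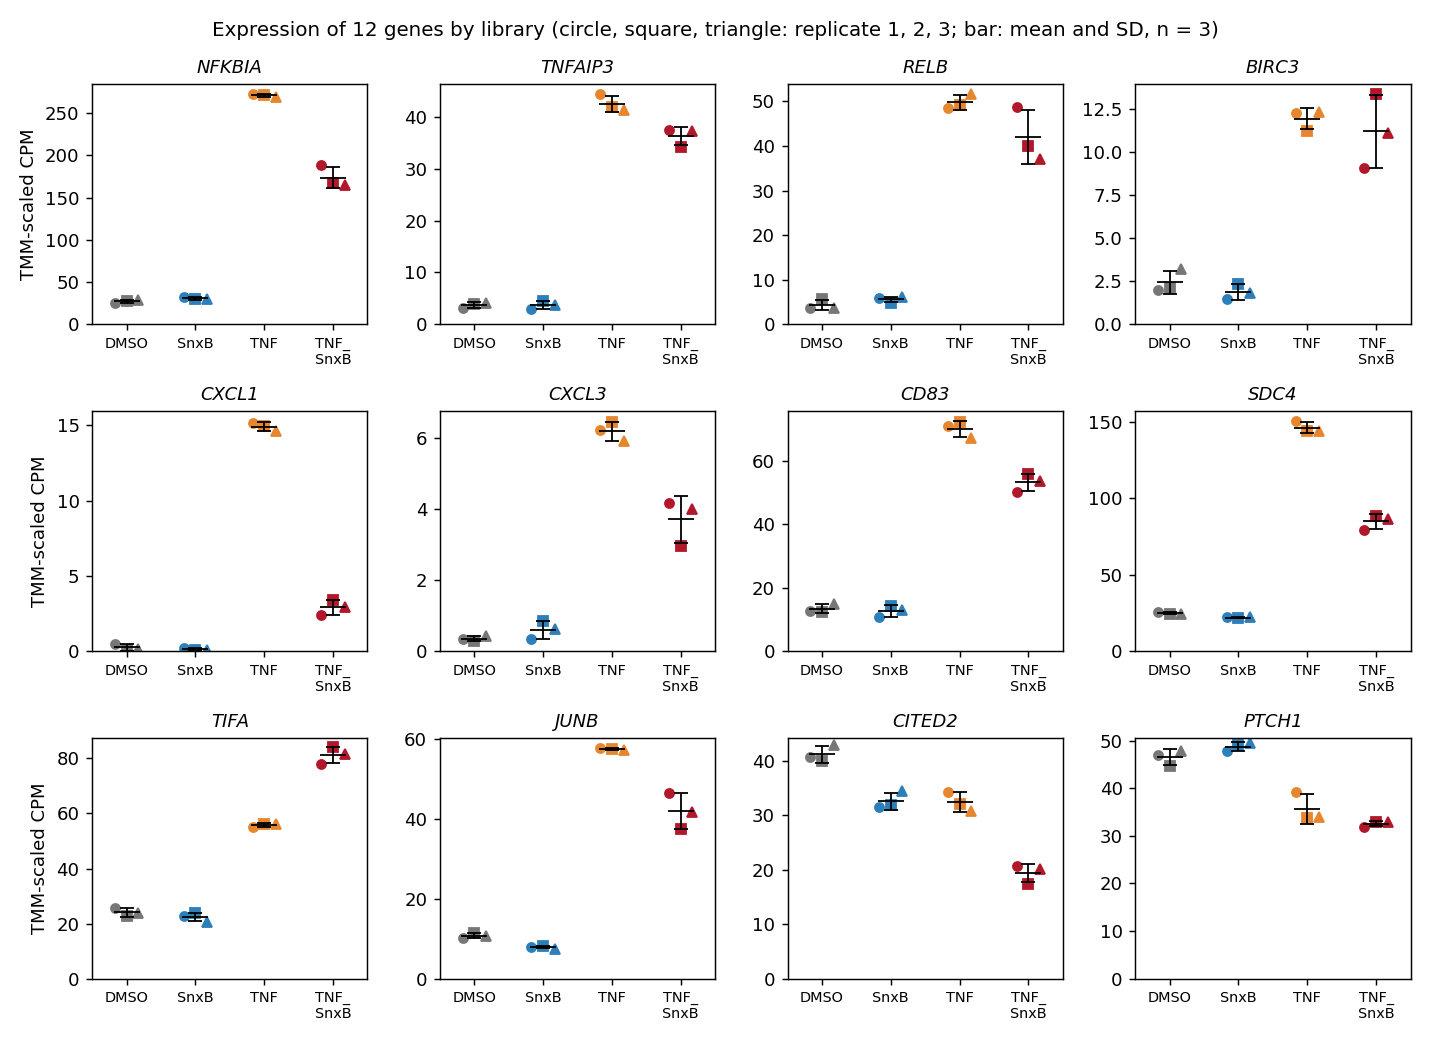
TMM-scaled CPM of 12 genes in each of the 12 libraries, by group; circles, squares and triangles are replicates 1, 2 and 3, and bars the mean and SD (n = 3). For the 10 raised genes all 3 TNF_SnxB points lie above all 3 SnxB points, and for CITED2 and PTCH1 below them.

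Surface molecules and other effectors of the TNF response held the most agreeing rises of the 16 lists, 12 of 23 tested genes. In this list 16 genes were called higher and none lower (median log2 fold change 0.43). Of all tested genes, 7.38% were called higher and 0.978% agreed as higher. The list was chosen with earlier results of these data known. IER3, an early-response gene linked to cell survival, had 6.15, 7.2 and 6.24 CPM in SnxB and 57, 52.2 and 53.5 CPM in TNF_SnxB, 8.23-fold higher (log2 3.04, SE 0.0957, adjusted p = 1.01e-19). TNFRSF9 (4-1BB), a costimulatory receptor, rose 6.93-fold from 0.798, 0.853 and 1.16 CPM to 5.71, 6.94 and 6.79 CPM. CD83, a surface protein of activated immune cells, rose 4.18-fold from 10.7, 14.4 and 12.9 CPM to 50.2, 55.8 and 53.6 CPM. SDC4, a heparan sulfate proteoglycan, rose 3.85-fold from 22.4, 21.7 and 22.2 CPM to 79.3, 88.6 and 86.6 CPM. In each of these 4 the lowest TNF_SnxB library was more than 3 times the highest SnxB library.

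TIFA, an adaptor that binds TRAF6, rose 3.63-fold from 22.7, 23.8 and 20.6 CPM to 78, 84 and 81.7 CPM (log2 1.86, SE 0.0653, adjusted p = 7.75e-19). PTX3, a soluble pattern-recognition protein, rose 3.73-fold, EFNA1, an ephrin ligand, 3.27-fold, and IRAK2, a kinase of Toll-like and interleukin-1 receptors, 2.18-fold. RIPK2, TNFRSF10B, EPHA2 and IFNGR2 rose by 1.42-fold, 1.29-fold, 1.34-fold and 1.2-fold. PLAU, STX11, SQSTM1 and IL27RA were called higher with all 3 libraries and did not agree. ICAM1 and VCAM1, adhesion molecules known from TNFα-treated endothelium, had 22 and 1 counts in TNF_SnxB and were not tested.

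Among regulators of survival and death, 6 of 19 tested genes were called higher and 3 lower, and the 4 that agreed were all higher. Of all tested genes, 7.38% were called higher, 6.83% were called lower and 0.978% agreed as higher. GADD45B, a stress-induced inhibitor of JNK signalling, rose 2.08-fold from 10.7, 11.9 and 14 CPM to 28.4, 24.2 and 24.4 CPM (adjusted p = 2.1e-08). FAS, a death receptor, rose 1.52-fold and PMAIP1 (NOXA), a pro-apoptotic BH3-only protein, 1.4-fold. MCL1, an anti-apoptotic BCL2 relative, rose from 304, 289 and 283 CPM to 321, 337 and 349 CPM, only 1.15-fold. The agreeing members thus included genes known to promote death and genes known to prevent it. The 3 called lower, BMF, BCL2L1 and FADD, had an adjusted p of 0.501, 0.478 and 0.363 with library 1 alone.

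Immediate-early genes changed in a minority. Of 33 tested, 8 were called higher and 2 lower and 6 agreed, all higher, with a median log2 fold change of 0.083. Shares over all tested genes were 7.38% called higher, 6.83% called lower and 0.978% agreeing as higher. JUNB, an AP-1 subunit, was the largest, with 7.98, 8.24 and 7.51 CPM in SnxB and 46.4, 37.4 and 41.8 CPM in TNF_SnxB (5.24-fold, adjusted p = 1.56e-17). KLF10 rose 1.76-fold, DUSP8, a MAP kinase phosphatase, 1.71-fold, BTG2, an antiproliferative gene, 1.48-fold, and ATF3, a stress-induced repressor, 1.35-fold. JUN rose from 114, 120 and 114 CPM to 139, 128 and 122 CPM, 1.12-fold (adjusted p = 0.0346). Its call was lost without SnxB library 1, 2 or 3 (adjusted p = 0.12, 0.0516 and 0.128) and without TNF_SnxB library 2 (0.0882).

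Factors that destabilise mRNA and genes of interferon signalling and antigen presentation added small numbers. For comparison, 14.2% of all tested genes were called in either direction and 1.17% agreed. Of 9 mRNA decay factors, 4 were called higher and 2 agreed: ZC3H12C (1.87-fold) and ZFP36L1 (1.3-fold). ZFP36 (tristetraprolin), which removes inflammatory transcripts, was called at 2.3-fold with all 3 libraries and had an adjusted p of 0.0678 with library 1 alone. Among 21 interferon and STAT response genes, 3 were called higher and 1 lower, and IRF1 and IRF2 agreed. IRF1, a transcription factor that acts in both pathways, rose 2.75-fold from 13.2, 14.1 and 12.1 CPM to 40, 32.6 and 36.8 CPM. Among 13 MHC class I genes, 3 were called higher and 2 agreed: TAPBP (1.46-fold) and TAP1 (1.38-fold), which load peptides.

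**Figure D3:**
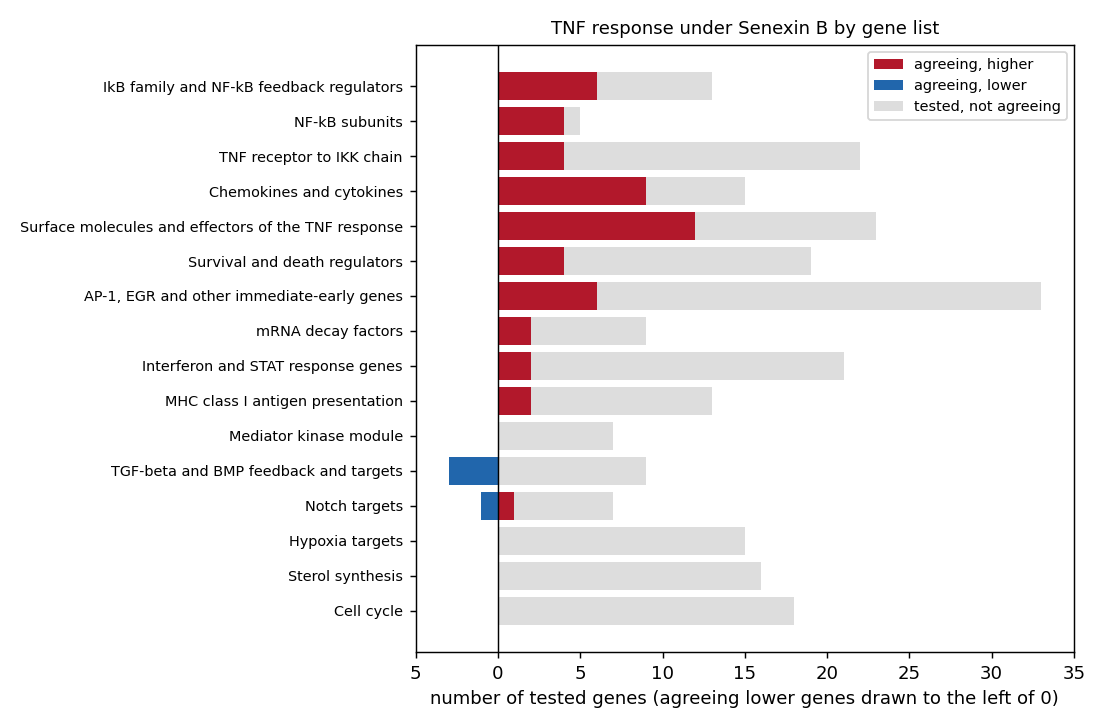
Number of tested genes in each of the 16 gene lists that agree as higher (red), agree as lower (blue, drawn left of 0) or do not agree (grey). The effector list holds the most agreeing rises (12), followed by the chemokine list (9) and the IκB and immediate-early lists (6 each), and among these lists agreeing falls occur only in the TGF-β and BMP list (3) and the Notch list (1).

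The transcripts of the Mediator kinase module did not agree in any member. Of 7 tested, CDK19, CCNC and MED13 were called higher with all 3 libraries (adjusted p = 0.0186, 0.034 and 0.0272), and with library 1 alone their adjusted p was 0.94, 0.967 and 0.911. CDK8 had 37.3, 37.1 and 39.9 CPM in SnxB and 37.1, 44.1 and 38.5 CPM in TNF_SnxB (adjusted p = 0.52). The median GC of the module's transcripts was 42.3%, and its median log2 fold change was 0.15 with all 3 libraries and 0.0309 with library 1 alone. No member was called lower, and 14.2% of all tested genes were called in either direction.

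The 29 agreeing falls had a median log2 change of -0.41. DACT1, a modulator of WNT signalling, had 16.9, 18.5 and 17.8 CPM in SnxB and 11.1, 10.1 and 10.2 CPM in TNF_SnxB, the largest fall (log2 -0.77, SE 0.0958, adjusted p = 2.28e-06). CITED2, a coregulator that competes for CBP and p300, fell from 31.6, 31.8 and 34.4 CPM to 20.6, 17.5 and 20.2 CPM (log2 -0.75, adjusted p = 8.09e-08). PTCH1, the receptor of Hedgehog ligands, fell from 47.8, 49.1 and 49.5 CPM to 31.9, 32.9 and 32.9 CPM (log2 -0.58, adjusted p = 4.07e-07). In these 3 genes the highest TNF_SnxB library was well below the lowest SnxB library. ZNF503, a zinc finger repressor (log2 -0.65), EMX2, a homeobox factor (-0.60), RGMA, a BMP coreceptor (-0.60), SOX12 (-0.57), TOX3 (-0.55), PLPP3, a lipid phosphatase (-0.51), and ISL1, a LIM homeobox factor (-0.49), completed the 10 largest that met the rule for naming. EMX2 lost its call without SnxB library 3 (adjusted p = 0.101) and without TNF_SnxB library 2 (0.059).

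TGF-β and BMP targets were called lower in 7 of 12 tested genes, of which 3 agreed, and none was called higher. Their median log2 fold change was -0.19 with all 3 libraries and -0.128 with library 1 alone, and their median transcript GC was 56.3%. Of all tested genes, 6.83% were called lower, 0.196% agreed as lower and 0.978% agreed as higher. ID3, an inhibitor of basic helix-loop-helix factors, fell from 118, 120 and 122 CPM to 96.2, 87.6 and 89.4 CPM (log2 -0.40, adjusted p = 2.79e-06), and ID2 and ID4 also agreed (log2 -0.21 for each). ID1, SMAD6 and SMAD7 were called lower and had adjusted p values of 0.218, 0.292 and 0.635 with library 1 alone. The ID genes fell while BMP2, a ligand known to induce them, rose. Of 8 Notch targets, NRARP agreed as higher (1.42-fold) and HEY1 as lower (log2 -0.41). None of the 15 hypoxia, 16 sterol synthesis or 18 cell cycle genes tested agreed in either direction. In those 3 lists 4, 5 and 3 genes were called with all 3 libraries, as were 14.2% of all tested genes. An unadjusted p under 0.05 was found for 8, 6 and 8 of them and for 4378 of all 14822 tested genes.

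The same cytokine without the inhibitor gave a reference that shares no library with the comparison above: TNF against DMSO, in which 212 genes (1.43%) were called higher and 88 (0.594%) lower. Of the 145 agreeing rises, 113 were among the 212, which is 77.9% of the agreeing rises and 53.3% of the TNF rises. All 37 agreeing rises over 2-fold were among them. Of the 212, 204 (96.2%) had a log2 fold change above 0 under the inhibitor with library 1 alone, where 49.3% of all tested genes did. For the falls, 15 genes were in both sets, 51.7% of the 29 and 17% of the 88.

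Of 41 genes called over 2-fold by TNF against DMSO, 31 agreed under the inhibitor, and 40 had a fitted rise over 2-fold there. The other 10 were AC241585.1, AC245100.1, CXCL6, CXCL2, RP11-500C11.3, KB-1732A1.1, KCNV1, PLAU, GREM1 and SLC16A6, named here because they did not agree. Each was low, with 10 to 75 counts over the 3 SnxB libraries and 31 to 203 over the 3 TNF_SnxB libraries. KB-1732A1.1 was the gene under 2-fold (log2 0.52, adjusted p = 0.414).

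Whether a response differed with the inhibitor was tested by the interaction, the log2 response under Senexin B minus the log2 response without it. Over all genes it was called higher for 132 (0.891%) and lower for 238 (1.61%), 2.5% in either direction, and it met the agreement rule for 7 (0.0472%). Of the 145 agreeing rises, 4 were called with a smaller response under the inhibitor and 12 with a larger one, and 3 and 1 of these agreed. NFKBIA had 25.2, 27.7 and 29 CPM in DMSO and 272, 271 and 269 CPM in TNF, a 9.93-fold rise against 5.63-fold under the inhibitor (interaction -0.82, SE 0.0907, adjusted p = 1.28e-05). SDC4 rose 5.88-fold without and 3.85-fold with the inhibitor (interaction -0.61, SE 0.0906, adjusted p = 0.00128), and JUN 1.45-fold and 1.12-fold (interaction -0.38, SE 0.0662, adjusted p = 0.0141). These 3 rose less under Senexin B in library 1 alone and in libraries 2 and 3. Leaving out any library left NFKBIA and SDC4 called (highest adjusted p over 19 settings other than a minimum fold 0.000516 and 0.0177), while JUN lost its call without DMSO 3, SnxB 2, SnxB 3, TNF 1, TNF 3 or TNF_SnxB 3 (up to 0.0804).

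TIFA went the other way. It had 25.8, 22.6 and 23.9 CPM in DMSO and 54.9, 56.1 and 56.2 CPM in TNF, a 2.31-fold rise, against 3.63-fold under the inhibitor (interaction 0.65, SE 0.0947, adjusted p = 0.00128, and at most 0.0202 over 19 settings). All 3 TNF_SnxB libraries, at 78 to 84 CPM, were above all 3 TNF libraries. IER3 rose 13-fold without the inhibitor and 8.23-fold with it (interaction -0.66, adjusted p = 0.0282), but its interaction had an adjusted p of 0.137 with library 1 alone. LDHA (0.19), APRT (-0.31) and FASN (-0.33), which encode enzymes of glycolysis, purine salvage and fatty acid synthesis, were the other genes with an agreeing interaction, and their response under the inhibitor did not agree. Their interactions lost the call in 10 to 12 of 19 settings, among them every one that left out DMSO 1, DMSO 3, SnxB 2, SnxB 3, TNF 1, TNF 3, TNF_SnxB 2 or TNF_SnxB 3.

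Most of the largest rises had no called interaction. TNFAIP3 rose 11.4-fold without and 9.58-fold with the inhibitor (interaction -0.25, SE 0.195, adjusted p = 0.448), and JUNB 5.36-fold and 5.24-fold (interaction -0.03, SE 0.14, adjusted p = 0.917). BIRC3 rose 4.76-fold and 5.93-fold (interaction 0.32, SE 0.292, adjusted p = 0.537), and TNFRSF9 6.81-fold and 6.93-fold (interaction 0.02, SE 0.355, adjusted p = 0.985). A miss of the threshold does not show equal responses. The chemokines had the most negative interactions with wide errors: -2.26 for CXCL8 (SE 1.04, adjusted p = 0.184), -1.53 for CXCL3 (SE 0.507, adjusted p = 0.078), -1.40 for CXCL1 (SE 0.903, adjusted p = 0.378) and -1.20 for CCL2 (SE 0.405, adjusted p = 0.0833). CXCL1 reached 14.9 ± 0.283 CPM in TNF and 2.92 ± 0.508 CPM in TNF_SnxB (SD, n = 3), from 0.265 and 0.143 CPM before TNFα. At the low counts of the untreated groups, a difference of that size in the fold could not be told from none.

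C10orf10 (DEPP), a regulator of autophagy, rose both with and without the inhibitor. It had 0.912, 0.947 and 1.48 CPM in SnxB and 6.48, 8.29 and 7.58 CPM in TNF_SnxB, a 6.73-fold rise, and went from 4.59 ± 0.738 CPM in DMSO to 18.7 ± 0.614 CPM in TNF (SD, n = 3), a 4.07-fold rise. Its fitted fold was higher and its level lower with the inhibitor. The interaction was not called (0.73, SE 0.274, adjusted p = 0.111), so a difference in fold is not established. KLF9, a transcription factor, rose 1.56-fold under the inhibitor and 1.19-fold without it (interaction 0.39, adjusted p = 0.0296; adjusted p = 0.471 with library 1 alone). TNF and TNF_SnxB ended at the same mean, 43.1 CPM, in that gene.

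**Figure D4:**
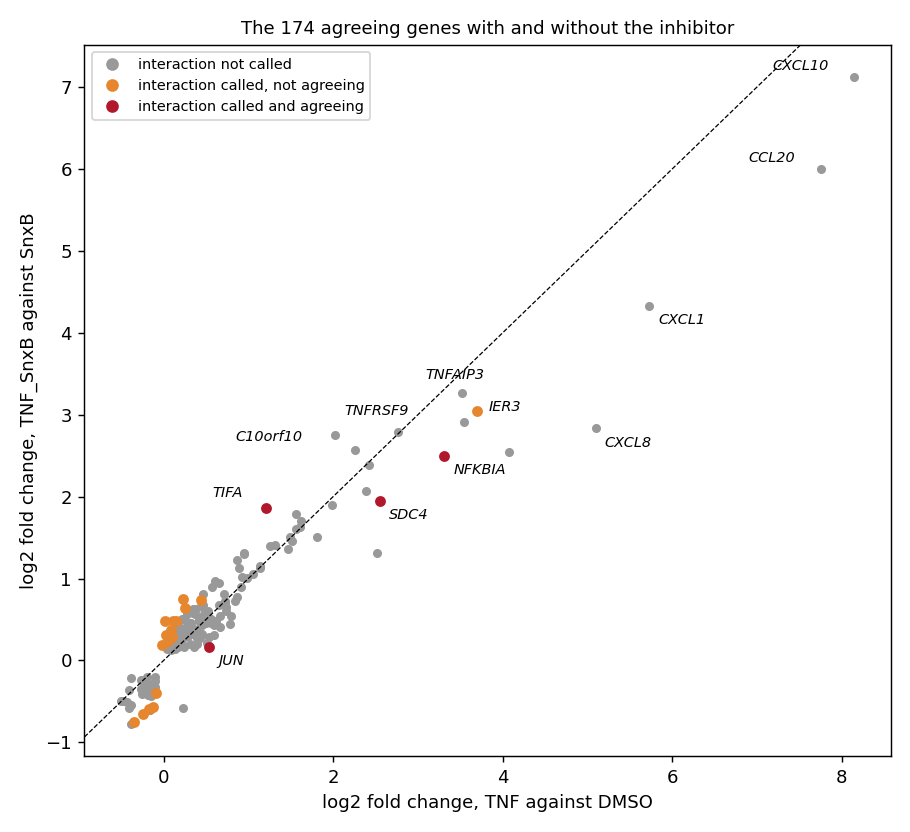
Log2 fold change of the 174 agreeing genes with TNFα alone (x axis, TNF against DMSO) and under Senexin B (y axis, TNF_SnxB against SnxB); the dashed line marks equal responses, orange points a called interaction and red points one that also agrees. NFKBIA, SDC4 and JUN lie below the line and TIFA above it; the fitted values of CXCL10 and CCL20 rest on groups with no counts and set no size.

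The remaining 32 agreeing rises were not called in TNF against DMSO, and 31 of them had a log2 fold change above 0 there. They were modest, from 1.09-fold to 1.69-fold. Among those with a called interaction was FRMD4B, a scaffold protein that rose from 9.91, 13.8 and 12.2 CPM to 19.5, 19.9 and 21.4 CPM under the inhibitor. Its log2 response without the inhibitor was 0.23 (adjusted p = 0.349). The interaction did not agree, with an adjusted p of 0.516 for library 1 alone. FRMD4B was named after its values were seen.

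Of the 145 agreeing rises, 140 had an annotation and 139 were protein coding. Of all tested genes, 13464 had an annotation and 12498 were protein coding. The median transcript length of the rises was 1496 bases against 1050 over all tested genes with a value. Their median level in SnxB was 30.6 CPM against 26.9 CPM.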

How the data were processed

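Total RNA of HEK293 cells was extracted with the RNeasy Mini kit and made into Illumina TruSeq RNA libraries, per the labels' protocols. The authors deposited a table of raw counts per gene symbol in 12 libraries. The submitters' processing notes name STAR 2.4, SAMtools 1.2, featureCounts of Subread 1.4.6 and the build GRCh38. For annotation, strand setting and read length the entry is: not given in the sources used here. Therefore overlapping and antisense genes may share reads. Totals ran from 8705277 to 50943310 counts. Counting limits precision for low genes.

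Counts were tested with edgeR 4.0.16 (R 4.3.3), limma 3.58.1 and DESeq2 1.42.0 serving as its dependency and as an alternative. The model held all 12 libraries and 4 group means, with TMM scaling, the default filter on low counts, the quasi-likelihood test (two-sided) and Benjamini-Hochberg adjustment over 14822 genes. The biological coefficient of variation was 3.49%. TNF_SnxB against SnxB was fitted 3 times for the agreement rule, and the interaction likewise. GC content and length came from the GENCODE annotation in use here, and promoters from RefSeq by gene symbol (118 of 145 agreeing rises and 24 of 29 falls matched). The fits were also run on simulated data. The planted changes were larger than most of those reported here and the spread was smaller, so small changes were not covered.

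Named genes were the 15 largest rises and 10 largest falls among agreeing genes with at least 1 CPM and groups that did not overlap, 8 genes at each end of the interaction among rises shared with TNF against DMSO, up to 4 members of each list by adjusted p, the Mediator kinase module, called members of the NF-κB, TNF, survival and immediate-early lists, and others where the text says so. RELA, TNFRSF1A, ID2, ID4 and the untested genes were named after their values were seen. The 16 gene lists were IκB and feedback regulators, NF-κB subunits, TNF receptor to IKK chain, chemokines and cytokines, effectors, survival and death, immediate-early, mRNA decay, interferon and STAT, MHC class I, Mediator kinase module, TGF-β and BMP, Notch, hypoxia, sterol synthesis and cell cycle. The members and lists were chosen with earlier results of these data known. Alternatives were DESeq2, its size factors, no filter on low counts, only the groups compared, a replicate block, a correction for GC content and length, a minimum fold of 1.5, and leaving out each library.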

Additional observations from a re-analysis of the deposited data

Results flagged for a closer look

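The interaction, tested in edgeR, was called for 21 genes named by the rule or the lists, and for 2.5% of all tested genes. This test compares the TNFα response with and without Senexin B. All values are log2 responses under the inhibitor minus log2 responses without it, with 3 libraries a group. Lower responses under the inhibitor were called for NFKBIA (-0.82), IER3 (-0.66), SDC4 (-0.61), FADD (-0.57), HES4 (-0.56), SOX12 (-0.45), RGMA (-0.42), SHARPIN (-0.41), ZNF503 (-0.41), CITED2 (-0.40), JUN (-0.38), FASN (-0.33), ID3 (-0.31) and APRT (-0.31). Higher responses were called for LDHA (0.19), ITCH (0.34), PMAIP1 (0.35), P4HA1 (0.37), BIRC2 (0.37), KLF9 (0.39) and TIFA (0.65). With all 3 libraries FADD, HES4 and SHARPIN were called lower under the inhibitor (log2 -0.39, -0.28 and -0.27). Their negative interaction is therefore not a smaller rise, and those falls did not agree.

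Over 18 or 19 other settings, a minimum fold aside, NFKBIA, SDC4 and TIFA lost no call and JUN lost it in 6. The remaining genes lost it in 10 (APRT) to 15 (RGMA) of them, so those calls depend on the setting. NFKBIA, SDC4, TIFA, JUN, LDHA, APRT and FASN met the agreement rule. The other 14 did not, and library 1 alone gave them adjusted p values for the interaction from 0.124 (HES4) to 0.795 (ITCH).

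For SOX12, RGMA, ZNF503, CITED2 and ID3, all agreeing falls, the negative sign means a larger fall with the inhibitor present: CITED2 fell by 0.75 on the log2 scale with it and by 0.35 without it. Library 1 alone gave adjusted p values of 0.505, 0.643, 0.447, 0.634 and 0.327 for the interaction in those 5 genes.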

How the results depend on the processing

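The counts over all genes depended on which TNF_SnxB libraries entered and on the spread they were tested against. Genes higher and lower in TNF_SnxB against SnxB, 1094 and 1012, became 299 and 211 with only the groups compared, 475 and 260 with the correction for GC content and length, 492 and 273 with that correction and the replicate block, 36 and 0 with a minimum fold of 1.5, and 173 and 44 with TNF_SnxB library 1 alone. Leaving out each library gave 332 to 2804 higher and 171 to 2598 lower, the highest without TNF_SnxB library 1. Genes whose groups did not overlap, 1753 higher and 1614 lower, ranged over 2088 to 4157 and 2013 to 4100, again highest without TNF_SnxB library 1.

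Agreeing rises, 145, became 80 with DESeq2 and 27 with a minimum fold of 1.5, and ranged over 121 to 137 when a SnxB library or TNF_SnxB library 2 or 3 was left out. The agreement rule cannot be applied without TNF_SnxB library 1. Agreeing falls, 29, became 8 with DESeq2, 19 with no filter, 19 with the replicate block, 0 with a minimum fold of 1.5, and 19 to 26 when any of those 5 libraries was left out. DESeq2 gave no adjusted p in at least 1 of the 3 fits for 22 of the 145 and 2 of the 29. A further 43 rises and 19 falls had an adjusted p in all 3 fits and did not agree there. Of the 15 tested chemokines and cytokines, 13 had no adjusted p with all 3 libraries. With the GC and length correction 180 rises and 25 falls agreed, 139 and 19 of them shared with the sets described.

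Interaction calls, 132 higher and 238 lower, became 257 and 454 with no filter, 267 and 469 with the replicate block, 26 and 23 with the GC and length correction, 42 and 36 with both, 0 and 0 with a minimum fold of 1.5, and 10 and 7 with library 1 alone. They were 1 to 2280 and 2 to 2241 without each library: leaving out any library other than DMSO 2 or TNF_SnxB 1 gave at most 2 higher and 9 lower, without DMSO 2 there were 118 and 220, and without TNF_SnxB 1 there were 2280 and 2241. Agreeing interactions, 2 higher and 5 lower, became 0 and 2 with DESeq2, 4 and 2 with the GC and length correction, 2 lower with that correction and the block, 0 and 0 with a minimum fold of 1.5, and 1 to 9 and 2 to 11 without each library other than TNF_SnxB 1, the highest without DMSO 2. For the counts above, fewer libraries or a stricter rule is part of the alternative's construction, and otherwise the cause was not tested. The interactions of NFKBIA, SDC4 and TIFA lost their call only with a minimum fold of 1.5. With DESeq2 no higher interaction agreed, so that of TIFA did not meet the agreement rule there.

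Deviations of SnxB and TNF_SnxB libraries with the same replicate number correlated at -0.0464, 0.026 and -0.0341 over genes. Those with different numbers correlated at -0.0689 to 0.0773. TNF_SnxB library 1 differed from libraries 2 and 3, so these correlations cannot show whether the samples were paired. With the replicate block 1114 genes were higher and 1089 lower, and 125 rises and 19 falls agreed.

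Some genes that did not agree changed sign on the log2 scale. With library 1 alone these were CCNC (-0.0205), CDK1 (-0.047), CDK8 (-0.038), TOP2A (-0.019), DHCR7 (0.0016), HES4 (0.048), MCM5 (0.0074) and MED12 (0.0398). With the GC and length correction they were CDK8 (-0.017), MED13L (-0.029), TOP2A (-0.033), HES4 (0.052) and MED12 (0.022), and with the replicate block as well CDK8 (-0.016), MED13L (-0.032), TOP2A (-0.033), HES4 (0.053) and MED12 (0.022). CDK8 ranged from -0.0064 to 0.114 when each library was left out, the lowest without TNF_SnxB library 2. At these depths genes near 1 CPM, chemokines among them, carry wide errors.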
